A study of Mus musculus with 2 samples.

Results

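The E2F and DP transcription factors comprise 10 genes, E2f1 to E2f8 and the dimerization partners Tfdp1 and Tfdp2, out of 43346 genes with an Ensembl identifier in the gene tables. They were taken by their GENCODE symbols, matched to the identifiers with the version number removed, and their 40 transcripts, of 129984 transcript rows, were taken by the same identifiers. Their polyadenylated RNA was measured by single-end sequencing with reads of 36 bases in 2 libraries, biological replicates 1 and 2, of G1E-ER4 cells. G1E-ER4 is an immortalized mouse erythroid line that descends from cells without Gata1 and carries GATA-1 fused to the ligand-binding part of the oestrogen receptor. Both libraries came from cells kept for 24 h in 10 nM 17beta-estradiol, the hormone that activates the fusion protein. Loss of the endogenous Gata1, the fusion protein and the hormone were thus shared by every library, and no uninduced or parental library was analysed here. The libraries form 1 group, so no condition was compared with another, no p-value is given, and each ± is an SD over n = 2 beside the mean.

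Replicate 1 held 20412826 expected counts and replicate 2 held 18564086. An expected count is the estimated number of reads of a gene or transcript, with ambiguous reads divided over their candidates, and TPM divides it by effective length and scales the result to a sum of 1000000 in each library, so that levels of different genes can be set side by side. All 10 erythroid markers examined were detected, from 94.6 TPM for Epor upwards, where detected means 1 TPM or more in both libraries. None of the 6 granulocyte and macrophage, 3 mast cell or 3 lymphoid markers was detected, and each lay at 0.5 TPM or less on average. Of 4 megakaryocyte markers 3 were detected, led by Gp1ba at 32.1 TPM, and of 4 progenitor markers 1 was, Kit at 12.3 TPM. The part of such cells in the levels below was not tested.

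E2F proteins bind a GC-rich DNA element as a dimer with a DP protein and control genes of DNA replication and cell division. E2f1, E2f2 and E2f3 are known as activators, held in check by the retinoblastoma protein until cyclin-dependent kinases phosphorylate it. E2f4 and E2f5 carry the related pocket proteins to the same promoters in resting and differentiating cells and repress them, E2f6 represses without a pocket protein, and E2f7 and E2f8 repress without pocket protein or DP partner through a pair of DNA-binding domains of their own. In erythroid cells E2f2 and E2f4 are known from mouse knockouts to be needed for orderly red cell production.

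All 10 genes were detected in both libraries, against 41.2% of the 21474 protein-coding genes in the tables, of which 8853 passed the same rule. Their levels spanned 2.21 to 148 TPM with a median of 38.8 TPM, beside a median of 0.08 TPM over all protein-coding genes and 20.8 TPM over those detected. Tfdp1, E2f4 and E2f8 lay above 100 TPM, which makes 3 of 10 genes, beside 5.52% of all and 13.4% of detected protein-coding genes. The tables give RNA of the whole culture, in which fewer cells with a transcript and less of it per cell cannot be told apart.

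In order of level the genes were Tfdp1, E2f4, E2f8, E2f1, E2f2, Tfdp2, E2f7, E2f3, E2f6 and E2f5. Each neighbouring pair stood in this order in both libraries. The ranges over the libraries overlapped between Tfdp1 and E2f4, whose ratio was 1.05-fold, and between E2f1 and E2f2, whose ratio was 1.04-fold, although the first of each pair was the higher within each library. The other 7 steps were free of overlap, from 1.22-fold between E2f4 and E2f8 to 2.92-fold between E2f6 and E2f5.

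**Figure D1:**
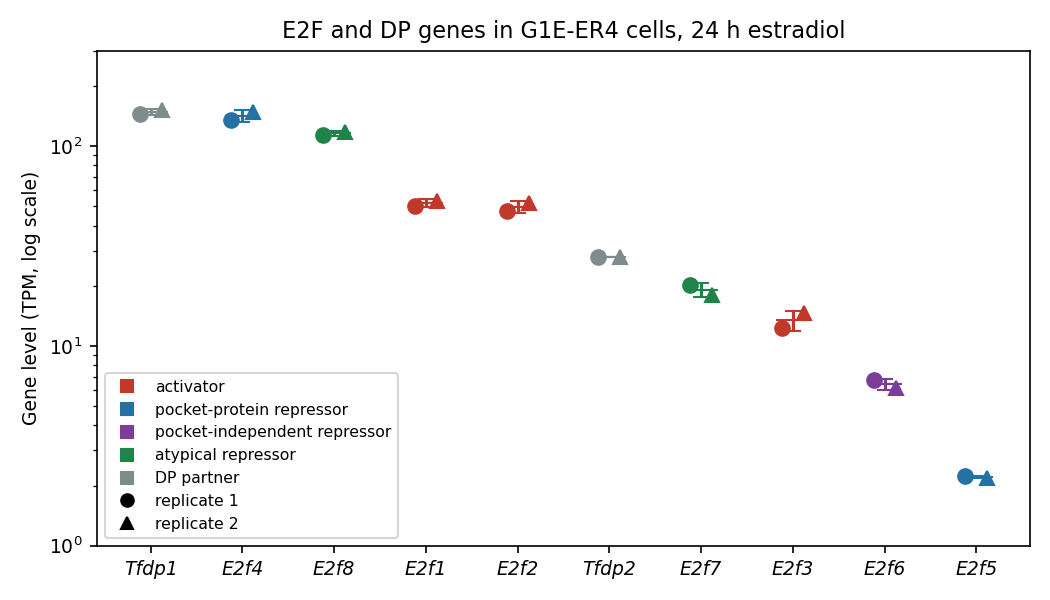
Level of each E2F and DP gene in TPM (log axis), ordered from highest to lowest. Circles are replicate 1, triangles replicate 2, horizontal marks with bars the mean and SD of both, and colours the roles. Tfdp1, E2f4 and E2f8 sit above 100 TPM and E2f5 alone sits below 5 TPM.

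The activators were led by E2f1 and E2f2 at nearly equal TPM, with E2f3 well below. E2f1, on chromosome 2 from 154559407 to 154569892 on the minus strand (GRCm38, as all gene coordinates here), had 50.2 TPM in replicate 1 and 53.4 TPM in replicate 2, or 51.8 ± 2.28 TPM (SD, n = 2). E2f2, on chromosome 4 from 136172394 to 136196057 on the plus strand, had 47.3 and 52.1 TPM in replicates 1 and 2, or 49.7 ± 3.40 TPM. The log2 ratio of E2f2 over E2f1 was -0.06 ± 0.04 in TPM, and the libraries' values for both genes lay within one span from 47.3 to 53.4 TPM. In CPM, expected counts scaled to 1000000 without division by length, E2f2 stood above E2f1 at a log2 ratio of 0.46 ± 0.04, and with only the protein-coding transcript of E2f2 it stood below at -0.37 ± 0.05. The order of these activators therefore rested on the unit and on which transcripts were summed.

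E2f3, on chromosome 13 from 29906575 to 29986063 on the minus strand, had 12.4 TPM in replicate 1 and 14.6 TPM in replicate 2, or 13.5 ± 1.57 TPM. E2f2 exceeded E2f3 by 1.89 ± 0.07 on the log2 scale, 3.70-fold, in TPM of all listed transcripts. With protein-coding transcripts alone E2f3 stood at 7.51 ± 0.368 TPM and the log2 ratio of E2f2 over E2f3 was 2.41 ± 0.09. E2f3 was the gene whose TPM differed most between the libraries, 1.18-fold, with the higher TPM in replicate 2, although its expected counts were 595 in replicate 1 and 514 in replicate 2. A short transcript with few counts, described below, moved with that difference, since its protein-coding transcript had 7.77 TPM in replicate 1 and 7.25 TPM in replicate 2.

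E2F genes are themselves known targets of E2F factors, so the RefSeq promoter windows of the members (GRCm38.p6, 250 bases before to 50 after a start) were searched for fixed letters on both strands. Of the 10 genes 8 had a window, 12 windows in all, with E2f4 and E2f5 not matched. The E2F letters TTTCCCGC, TTTCGCGC, TTTGCCGC or TTTGGCGC occurred in 5 of the 12 windows, beside 2.26% of 32851 mouse promoter windows of 300 bases. The 5 were those of E2f2, E2f3, E2f7 and both overlapping ones of Tfdp1. The Tfdp1 windows hold the same match, which is thus counted in each. The GATA letters AGATAA or TGATAA occurred in none of the 12, beside 18.6% of all windows, the CCAAT letters in 5, beside 37.4%, and the cell-cycle element letters TTTGAA or TTCGAA (CHR, the element known for binding by MuvB complexes) in 3, beside 19.2%. The members' windows ranged from 39.3% to 80.7% GC, and the mouse windows set beside them were not matched for GC content. The part of base composition in these shares was not tested. A match describes letters in a window and is not evidence of binding, which was not measured here, and a window without one says nothing on the factor. The window of E2f1 lies downstream of both starts that GENCODE gives for that gene. Both windows of Tfdp2, at starts 96258705 and 96259248, likewise lie far downstream of the start of Tfdp2-201 at 96196304, the transcript with most counts of that gene.

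The windows of the activators with matches are printed 5′ to 3′ on the strand of the gene, with E2F, CCAAT and CHR letters in capitals, because they show how the matches lie around each start. A position is that of the first letter of a match as printed, with the start base counted as 1 and the base before it as -1. For E2f2 (chr4:136172024-136172323 strand plus) the E2F letters TTTGGCGC begin at position 40 and CCAAT at -13. These positions count from the RefSeq start at 136172274. The whole window lies upstream of the GENCODE start of E2f2-201 at 136172394. For the second start of E2f2 (chr4:136180532-136180831 strand plus) the capitals are CCAAT at -174, -133 and -53 and the CHR letters TTTGAA at -31, with no E2F letters. For E2f3 (chr13:29986014-29986313 strand minus) the E2F letters, read as GCGGGAAA, begin at -11, the CHR letters TTTGAA at -23, and CCAAT or its reverse at -145, -109 and -81.
E2f2 upstream start: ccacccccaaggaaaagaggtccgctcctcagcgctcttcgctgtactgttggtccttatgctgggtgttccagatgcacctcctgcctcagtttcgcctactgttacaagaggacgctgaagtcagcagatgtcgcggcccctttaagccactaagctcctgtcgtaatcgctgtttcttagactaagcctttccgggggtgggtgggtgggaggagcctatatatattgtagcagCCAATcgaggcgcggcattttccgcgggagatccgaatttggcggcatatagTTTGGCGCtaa
E2f2 second start: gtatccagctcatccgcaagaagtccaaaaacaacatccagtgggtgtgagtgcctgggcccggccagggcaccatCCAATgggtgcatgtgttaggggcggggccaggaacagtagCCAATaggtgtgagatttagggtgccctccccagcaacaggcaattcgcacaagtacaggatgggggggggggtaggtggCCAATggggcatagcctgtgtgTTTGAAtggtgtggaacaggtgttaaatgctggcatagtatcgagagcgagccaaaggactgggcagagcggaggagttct
E2f3 upstream start: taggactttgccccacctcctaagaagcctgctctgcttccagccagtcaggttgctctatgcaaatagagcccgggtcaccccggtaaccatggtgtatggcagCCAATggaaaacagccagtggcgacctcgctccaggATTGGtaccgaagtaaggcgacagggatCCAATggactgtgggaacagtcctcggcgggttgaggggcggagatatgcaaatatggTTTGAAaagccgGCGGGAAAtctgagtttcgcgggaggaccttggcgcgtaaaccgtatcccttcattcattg

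Among the repressors that act with pocket proteins, E2f4 supplied nearly all of the RNA. E2f4, on chromosome 8 from 105297663 to 105305370 on the plus strand, had 135 TPM in replicate 1 and 148 TPM in replicate 2, or 142 ± 9.51 TPM. It ranked 895 among protein-coding genes. E2f5, on chromosome 3 from 14578641 to 14606309 on the plus strand, had 2.22 and 2.19 TPM, or 2.21 ± 0.0212 TPM, and rested on 61 and 55 expected counts in replicates 1 and 2. E2f4 exceeded E2f5 by 6.004 ± 0.11 on the log2 scale, 64.2-fold. E2f5 was the lowest of the 10 genes and the single one under 5 TPM.

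E2f6, on chromosome 12 from 16810963 to 16839742 on the plus strand, works with a Polycomb complex rather than with pocket proteins. It had 6.74 TPM in replicate 1 and 6.14 TPM in replicate 2, or 6.44 ± 0.424 TPM, from 258 and 214 expected counts. It was the second lowest of the 10 genes, 2.92-fold above E2f5 and 2.09-fold below E2f3.

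Of the atypical repressors E2f8 stood among the highest members and E2f7 in the lower part. E2f8, on chromosome 7 from 48866429 to 48881596 on the minus strand, had 114 TPM in replicate 1 and 118 TPM in replicate 2, or 116 ± 3.27 TPM. E2f7, on chromosome 10 from 110745439 to 110787384 on the plus strand, had 20.2 TPM in replicate 1 and 18.0 TPM in replicate 2, or 19.1 ± 1.56 TPM. Neither value of E2f7 came near those of E2f8, and E2f8 exceeded E2f7 by 2.60 ± 0.16 on the log2 scale, 6.06-fold. By expected counts E2f8 was the highest of all 10 genes, with 6464 in replicate 1 and 6120 in replicate 2.

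The promoter windows of the atypical genes are shown because these genes are known E2F targets and only the E2f7 window of the pair holds E2F letters. For E2f7 (chr10:110745189-110745488 strand plus) the E2F letters, read as GCGGGAAA, begin at -198, and reverse CCAAT letters begin at -46 and -14. For E2f8 (chr7:48881547-48881846 strand minus) the capitals are reverse CCAAT letters at -112 and the CHR letters, read as TTCAAA, at -20, with no E2F letters in these 300 bases.
E2f7 promoter: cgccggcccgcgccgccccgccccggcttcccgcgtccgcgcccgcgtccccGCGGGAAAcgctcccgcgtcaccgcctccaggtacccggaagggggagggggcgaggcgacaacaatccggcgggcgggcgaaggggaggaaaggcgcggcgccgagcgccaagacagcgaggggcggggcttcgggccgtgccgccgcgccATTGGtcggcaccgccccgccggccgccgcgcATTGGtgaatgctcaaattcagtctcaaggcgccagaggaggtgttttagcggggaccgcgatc
E2f8 promoter: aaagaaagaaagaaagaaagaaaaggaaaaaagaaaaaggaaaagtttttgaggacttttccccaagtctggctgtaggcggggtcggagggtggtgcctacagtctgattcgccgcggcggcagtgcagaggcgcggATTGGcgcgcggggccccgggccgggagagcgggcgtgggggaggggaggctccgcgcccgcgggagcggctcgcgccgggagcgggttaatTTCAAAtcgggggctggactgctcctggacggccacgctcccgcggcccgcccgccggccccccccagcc

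The DP genes encode the partners without which E2f1 to E2f6 bind DNA poorly. Tfdp1, on chromosome 8 from 13338751 to 13378448 on the plus strand, was the highest member in TPM, though not in CPM. It had 145 TPM in replicate 1 and 152 TPM in replicate 2, or 148 ± 4.86 TPM. It ranked 832 among protein-coding genes. Tfdp2, on chromosome 9 from 96196275 to 96323646 on the plus strand, had 27.8 and 28.0 TPM in replicates 1 and 2, or 27.9 ± 0.134 TPM. Tfdp1 exceeded Tfdp2 by 2.41 ± 0.04 on the log2 scale, 5.32-fold, in TPM, but by 1.09 ± 0.01, 2.13-fold, in CPM. Tfdp1 shares 47.3% of its 36-base stretches with Gm7390, a processed pseudogene on chromosome 9 from 4977959 to 4979174 for which no level was analysed here, so reads from the pseudogene could not be told from those of Tfdp1. The other 9 genes had 90.8% or more of their 36-base stretches to themselves.

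The upstream window of Tfdp1 (chr8:13338501-13338800 strand plus) holds E2F letters, read as GCGCGAAA, from -43, and no other letters searched. Its start at 13338751 and that of the other window at 13338804 lie upstream of the start of Tfdp1-201 at 13339674. Tfdp1-201 is the transcript on which the level of the gene rests, and neither window reaches its start.
Tfdp1 promoter: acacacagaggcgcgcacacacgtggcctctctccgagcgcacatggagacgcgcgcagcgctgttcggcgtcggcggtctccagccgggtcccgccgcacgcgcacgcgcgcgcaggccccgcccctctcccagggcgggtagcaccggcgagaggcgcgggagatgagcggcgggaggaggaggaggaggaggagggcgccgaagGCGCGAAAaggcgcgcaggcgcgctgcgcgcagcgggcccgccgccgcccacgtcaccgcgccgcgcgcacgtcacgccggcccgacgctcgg

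Summed by role, the repressors E2f4 and E2f5, the atypical pair and the activators held similar parts of the E2F RNA. The 8 E2F genes together reached 387 TPM in replicate 1 and 413 TPM in replicate 2, or 400 ± 18.0 TPM (SD, n = 2). E2f4 and E2f5 made up 35.9% ± 0.753, E2f7 and E2f8 33.7% ± 1.09, the activators 28.7% ± 0.518 and E2f6 1.61% ± 0.179 of that sum. Activators lay below the pocket-protein repressors in both libraries, with a log2 ratio of -0.32 ± 0.004 in TPM. In CPM that direction reversed, to 0.39 ± 0.06, and effective lengths were 1957 bases for E2f4 and 4001 and 3719 bases for E2f2 in replicates 1 and 2. In that unit the atypical pair held the largest share, 42.2%, above the activators at 32.0% and E2f4 with E2f5 at 24.5%. With protein-coding transcripts alone the log2 ratio of activators over pocket-protein repressors was -0.53 ± 0.06.

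The DP genes together reached 176 ± 4.99 TPM. The 8 E2F genes exceeded both DP genes by 1.18 ± 0.02 on the log2 scale, 2.27-fold, and E2F RNA was the higher in each library. The atypical genes, whose proteins need no DP partner, are part of that E2F sum.

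**Figure D2:**
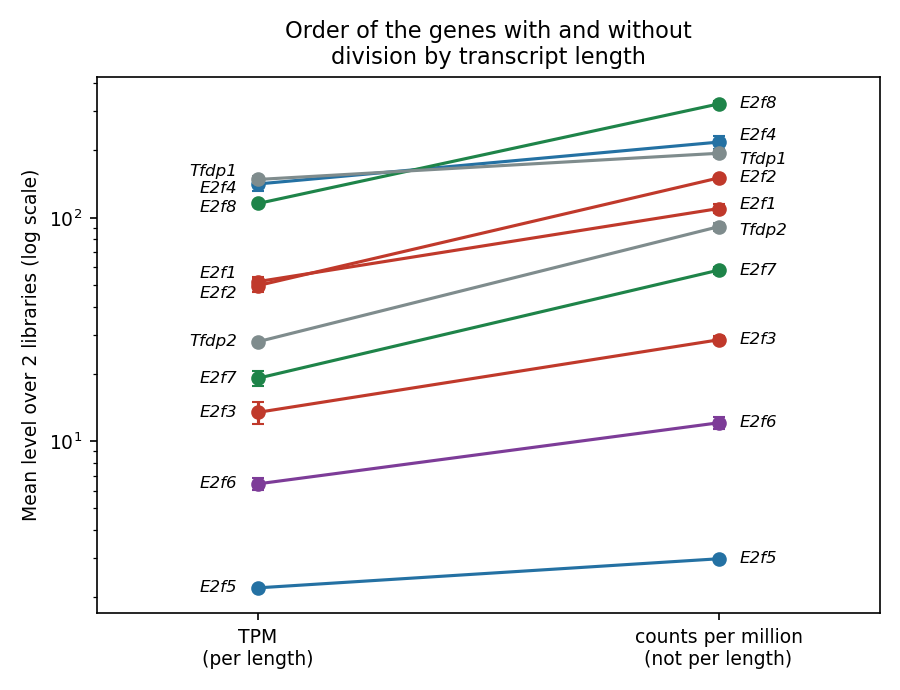
Mean level of each gene over 2 libraries in TPM (left) and in CPM of expected counts (right), on a log axis, with SD as bars and colours for the roles as in the plot of levels. Lines that cross are genes whose order depends on length. E2f8 is below Tfdp1 and E2f4 in TPM and highest in CPM, E2f4 passes Tfdp1, and E2f2 passes E2f1.

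No member differed over 1.5-fold between the libraries after TMM scaling, against 3.92% of the 9354 genes with 50 or more counts on average. The ratio of replicate 2 over replicate 1 ran from 0.913 for E2f6 (exact 95% Clopper-Pearson interval 0.758 to 1.10) to 1.10 for E2f4 (1.06 to 1.15). Intervals of E2f1, E2f4, E2f8 and Tfdp1 left out 1, all on the side of replicate 2, and those of the other 6 genes included it. Such intervals cover counting error alone. The widest belonged to E2f5, from 0.677 to 1.45.

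Of the 40 transcripts 32 had counts in at least 1 library and 15 held 10% or more of their gene's TPM in either library. E2f4, E2f6 and Tfdp1 have 1 transcript each in the files, while the later GENCODE M21 lists 3, 7 and 9 for them, so nothing can be said on their isoforms. For E2f3 the files list 2 transcripts and M21 lists 4. In the remaining genes the split between transcripts is an estimate, since most reads fit several of them and some transcripts have no 36-base stretch that sets them apart.

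For E2f2 the annotation lists a short transcript with an alternative start inside the gene. E2f2-201, the protein-coding transcript of 4739 bases and 7 exons, held 83.7% of the gene's TPM in replicate 1 and 77.2% in replicate 2. E2f2-202, a processed transcript of 426 bases and 4 exons annotated without a coding sequence, held 16.3% and 22.8% in replicates 1 and 2. Its first exon of 143 bases lies in an intron of E2f2-201 and starts 8389 bases downstream of the E2f2-201 start, within 1 base of the second RefSeq start whose window is printed above. In TPM E2f2-202 reached 7.71 in replicate 1 and 11.9 in replicate 2. It rested on 48.4 and 68.0 expected counts, only 1.59% and 2.40% of the counts of the gene. The part of unspliced E2f2 RNA in these counts was not tested. The share in TPM exceeds the share in counts by construction, since TPM divides by length.

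Short transcripts of E2f3 and Tfdp2 likewise had a larger share in TPM than in counts. E2f3-202, a processed transcript of 216 bases in the files, had 37.1% of the TPM of E2f3 in replicate 1 and 50.2% in replicate 2 on 13.3 and 19.4 expected counts. The protein-coding E2f3-201, with 4702 bases in the files, held 97.8% of the counts in replicate 1 and 96.2% in replicate 2. Tfdp2-215, a partial coding transcript of 550 bases and 2 exons in the later part of the gene, had 39.8% of the TPM of Tfdp2 in replicate 1 and 35.7% in replicate 2. In counts it held 5.06% and 4.31%. Its first exon lies inside an exon of Tfdp2-201, and its last exon runs through an intron of Tfdp2-201. The part of unspliced Tfdp2 RNA in its counts was not tested. Tfdp2-201, of 7354 bases, held 49.5% and 53.4% of the TPM. Without transcripts under 1000 bases Tfdp2 stood at 16.9 ± 0.219 TPM, beside E2f7 at 17.5 ± 0.990 TPM. Tfdp2 was the lower in replicate 1, at 16.7 TPM beside 18.2 TPM for E2f7, and the higher in replicate 2, at 17.0 TPM beside 16.8 TPM, so the order turned between the libraries. In that setting the log2 ratio of Tfdp1 over Tfdp2 was 3.14 ± 0.03.

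**Figure D3:**
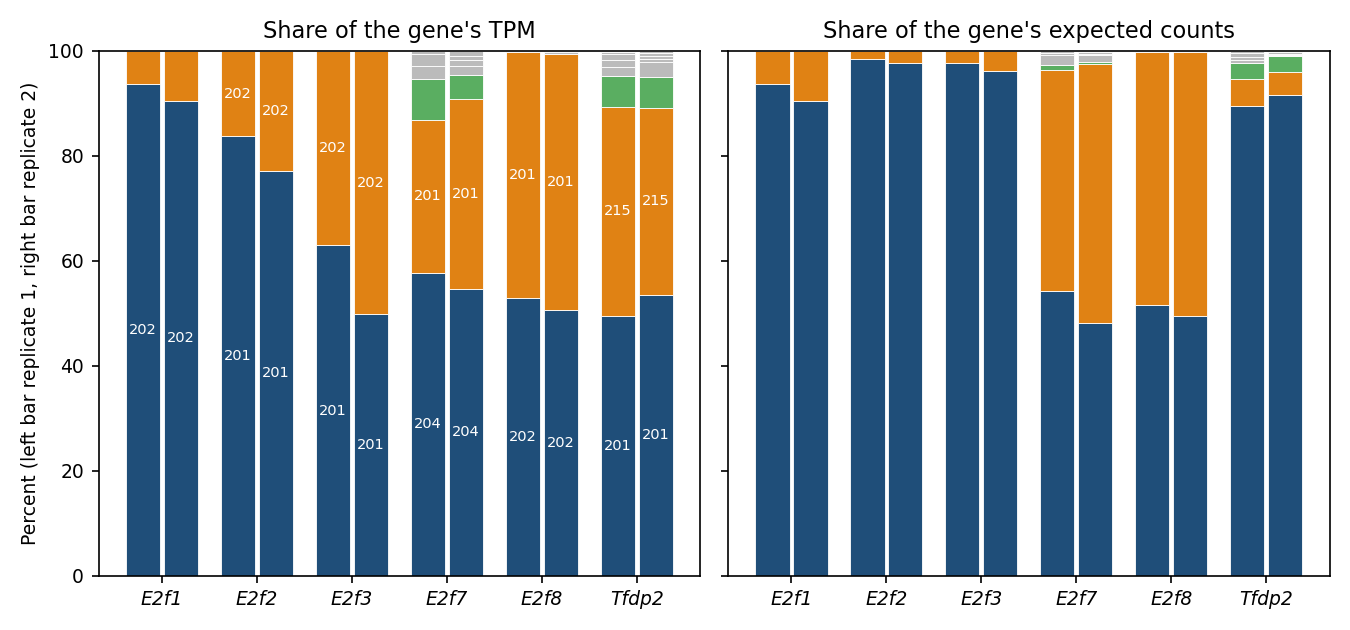
Share of each gene's TPM (left panel) and of its expected counts (right panel) held by each transcript, in percent. Shown are the 6 genes with counts assigned to more than 1 transcript. The left bar of each pair is replicate 1 and the right bar replicate 2, numbers are the transcript suffixes, and grey parts are transcripts under 5% of TPM in both libraries. E2f2-202, E2f3-202 and Tfdp2-215 shrink to 5.06% or less in the right panel.

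The counts of E2f8 were assigned almost evenly to transcripts with different first exons. E2f8-202, with a first exon of 189 bases, held 52.8% of TPM in replicate 1 and 50.7% in replicate 2. E2f8-201, with a first exon of 381 bases that starts 555 bases downstream, held 46.9% and 48.7%. Either one has a coding length of 2580 bases and 13 exons, so the difference lies in the leader. Of the 36-base stretches, 185 of 3464 in E2f8-202 and 37 of 3656 in E2f8-201 occur in no other listed transcript of the gene, so the split rests on few positions. For these long transcripts the shares in counts were close to those in TPM, 51.6% and 49.6% for E2f8-202.

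E2f7 and E2f1 also had a pair of long transcripts each. E2f7-204, of 3567 bases, held 57.7% of TPM in replicate 1 and 54.6% in replicate 2, and E2f7-201, of 5473 bases, held 29.2% and 36.3%, with a coding length of 2712 bases in both. Only 46 of the 3532 36-base stretches of E2f7-204 occur in no other listed transcript of the gene, beside 1874 of 5438 for E2f7-201. E2f1-202, with 1290 coding bases, held 93.7% and 90.5% of TPM in replicates 1 and 2. E2f1-201, which starts 172 bases downstream and has 1155 coding bases, held the remaining 6.27% and 9.55%, under the 10% rule in both libraries.

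**Figure D4:**
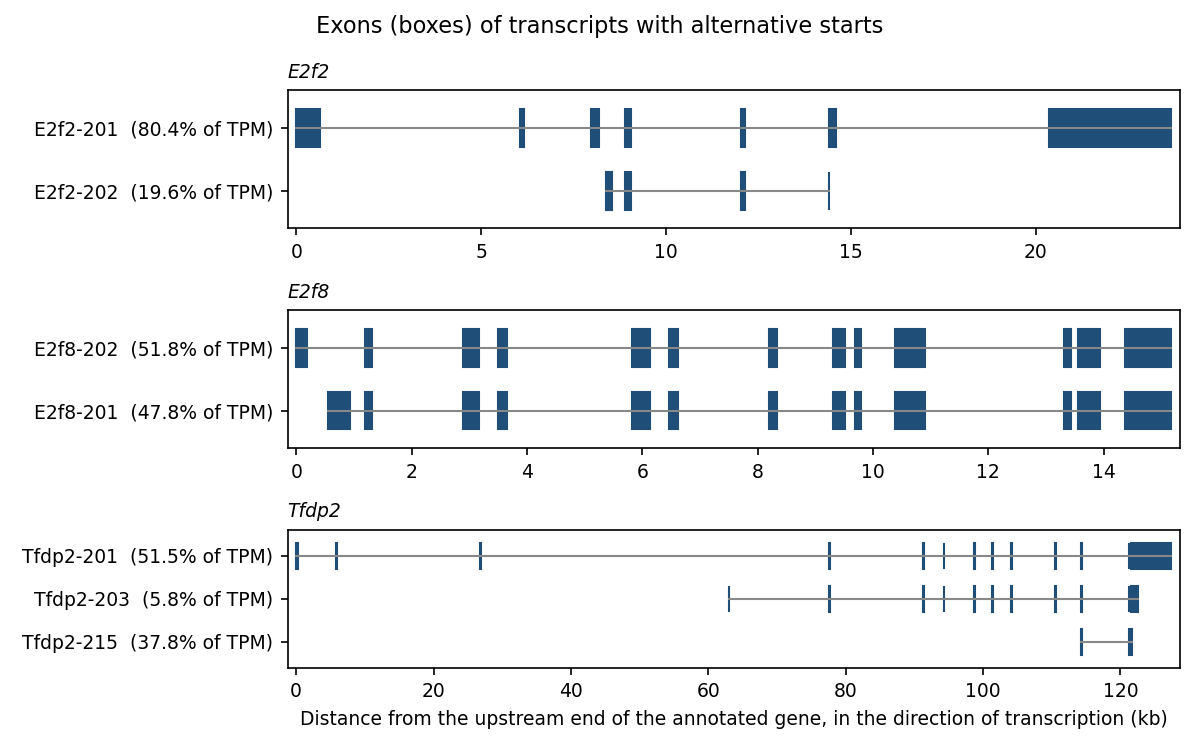
Exons (boxes) of transcripts with different annotated starts in E2f2, E2f8 and Tfdp2, with each transcript's mean share of the gene's TPM. They are drawn to scale by distance in kb from the upstream end of the annotated gene in the direction of transcription. The last exon of Tfdp2-215 runs through an intron of Tfdp2-201. E2f2-202 begins in an intron 8389 bases downstream of E2f2-201, and the E2f8 transcripts differ in their first exon.

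The transcripts of E2f5 differ by 3 bases inside the coding sequence and in where they start and end. E2f5-201, of 1779 bases, starts at 14578641 with a first exon of 383 bases. E2f5-202, of 1751 bases, starts at 14578671 with a first exon of 353 bases. Exon 4 of E2f5-202 starts 3 bases earlier than that of E2f5-201 (chr3:14601000-14601002, plus strand), which adds 1 codon, for coding lengths of 1008 and 1005 bases. The junction of exons 3 and 4 is printed with the added bases in capitals, since it is among the places where reads separate these forms.
E2f5-202 junction: cattaataacagTACattttcttatgt
E2f5-201 junction: cattaataacagattttcttatgt
TPM placed 100% of E2f5 on E2f5-202 in both libraries. The posterior mean estimate, which adds a prior count, gave it 65.3% in replicate 1 and 58.0% in replicate 2. With 61 and 55 counts in the whole gene the split was not resolved at this depth.

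Exons of 3 members overlap those of a gene on the opposite strand, and whether the counting was strand-specific is not stated. E2f8 shares 610 exon bases with Gm2788, which had 3.02 and 2.63 TPM in replicates 1 and 2, and E2f7 shares 86 with 1700020G17Rik at 0.17 and 0 TPM. E2f5 shares 26 exon bases with 1810022K09Rik, a gene at 107 TPM in replicate 1 and 69.3 TPM in replicate 2. The part of these overlaps in the levels was not tested.

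The genes that control E2F factors were next described by lists, each given as detected members and the median of mean TPM. These are to be read against the medians over protein-coding genes above and the 41.2% of those genes that were detected. All 3 pocket proteins were detected, with a median of 16.2 TPM. Rb1, the retinoblastoma gene, had 38.6 ± 0.693 TPM, Rbl2 (p130) 16.2 ± 0.728 TPM and Rbl1 (p107) 11.5 ± 1.58 TPM. E2f4, at 142 TPM, was higher in TPM than each of them.

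Of 9 genes for G1 cyclins, their kinases and the phosphatase Cdc25a, 8 were detected, with a median of 40.8 TPM and a range of 0.455 to 1048 TPM. Ccnd3, a D-type cyclin with a known role in the number of divisions of erythroid precursors, had 1048 ± 103 TPM, Cdk4 563 ± 30.9 TPM, Ccne1 182 ± 6.35 TPM and Ccne2 60.9 ± 13.5 TPM. Ccnd1, another D-type cyclin, had 0.44 and 0.47 TPM in replicates 1 and 2.

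Of 7 CDK inhibitors, which keep pocket proteins bound to E2F, 4 were detected, with a median of 24.0 TPM. Cdkn1a (p21) had 117 ± 5.98 TPM, Cdkn1b (p27) 74.1 ± 4.99 TPM, Cdkn2c 65.5 ± 2.44 TPM and Cdkn2d 24.0 ± 3.05 TPM. Cdkn1c, Cdkn2a and Cdkn2b had 0 TPM in both libraries. A count of 0 allows up to 3 counts, which is 0.147 CPM in replicate 1 and 0.162 in replicate 2.

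MuvB is the core that joins E2f4 and pocket proteins in the DREAM repressor and joins Mybl2 and Foxm1 in activators of late cell-cycle genes. All 8 genes of that list were detected, with a median of 46.1 TPM and a range of 6.59 to 177 TPM. Lin37 had 177 ± 3.71 TPM, Mybl2 142 ± 15.5 TPM, Rbbp4 140 ± 0.0919 TPM and Foxm1 56.7 ± 3.92 TPM. The members under 10 TPM were Lin52 and Lin9, named after their values were seen, at 6.59 and 9.13 TPM.

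All 10 genes of the Polycomb complex that E2f6 joins were detected, with a median of 24.5 TPM and a range of 5.17 to 94.96 TPM. Cbx3 had 94.96 ± 16.6 TPM, Max 66.6 ± 1.67 TPM, Wdr5 27.8 ± 3.20 TPM and L3mbtl2 27.8 ± 1.61 TPM. E2f6 itself, at 6.44 TPM, lay near the low end of that range.

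Known E2F targets were present at high levels. All 20 G1/S genes were detected, with a median of 142 TPM, and 12 of them exceeded 100 TPM. Over all protein-coding genes 5.52% exceeded 100 TPM, and over detected ones 13.4%. Mcm3 had 401 ± 10.4 TPM, Mcm7 328 ± 4.27 TPM, Pcna 297 ± 8.15 TPM and Mcm5 290 ± 22.5 TPM, all of the replication machinery. All 12 G2/M genes were detected too, with a median of 152 TPM, and 10 exceeded 100 TPM, beside the same shares. Top2a had 328 ± 17.0 TPM, Ccnb1 260 ± 15.3 TPM, Aurka 191 ± 12.3 TPM and Birc5 176 ± 6.80 TPM. Ccne1, Ccne2, Cdc25a and Rbl1 stand both in the G1/S list and in another list. Cdc20 stands both in the G2/M list and in the list of genes that remove E2F proteins, given below. With 1 group, these levels do not show whether the genes were changing at 24 h.

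**Figure D5:**
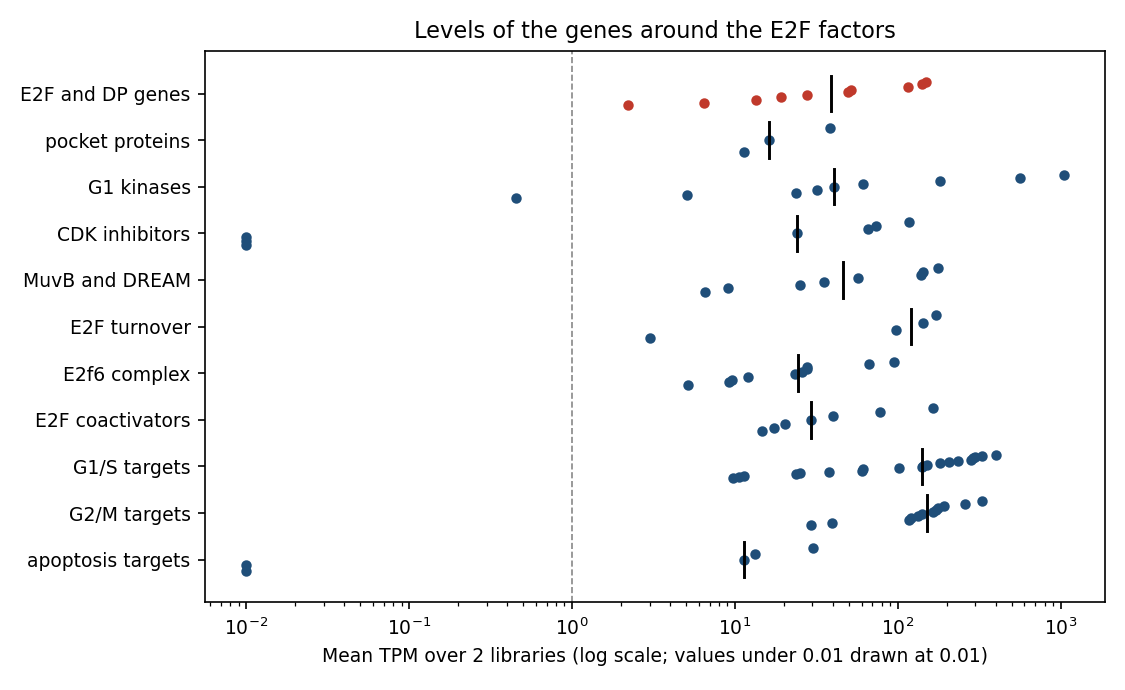
Mean TPM over 2 libraries of each gene (points, log axis) in the E2F and DP set (top row) and in 10 lists of regulators, partners and targets, with a bar at the median of each row and a dashed line at 1 TPM. The G1/S and G2/M rows have medians of 142 and 152 TPM, and the E2F and DP row one of 38.8 TPM.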

How the data were processed

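RNA was measured in 2 libraries of 1 group. Per the deposited file manifests, reads were quantified on mm10 with GENCODE M4. For the aligner and quantifier, a name is not given in the sources used here. The authors deposited expected counts, TPM and a posterior mean TPM (treated here as a score, since it contains a prior count), and transcript tables with the percent of a gene's TPM, per the file headers. From these, ratios, sums, shares and CPM were computed with Python 3.11.15 and pandas 2.3.3, and intervals with scipy 1.17.1. TMM scaling, used only to compare the libraries, came from edgeR 4.0.16 in R 4.3.3 on rounded expected counts and was tested on simulated data. Names, types and coordinates came from GENCODE M21, and promoters from RefSeq. Fold change tests were not possible with 1 group. Genes named were all 10 members, the 4 highest and those under 1 TPM of each pathway list, and transcripts with 10% of TPM in a library. Markers and other transcripts were named after their values were seen. Members and lists were chosen with earlier results of these data known. Intervals cover counting error only. Some genes of the apoptosis list are not reported here.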

Additional observations from a re-analysis of the deposited data

How the results depend on the processing

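In CPM in place of TPM, 2 log2 ratios changed sign: activators over pocket-protein repressors, at 0.39 against -0.32 in TPM, and E2f2 over E2f1, at 0.46 against -0.06. In that unit E2F over DP was 1.66, Tfdp1 over Tfdp2 1.09, E2f2 over E2f3 2.41 and E2f4 over E2f5 6.19, and 6 of 10 genes kept their rank. With posterior mean TPM activators over pocket-protein repressors was -0.31 and Tfdp1 over Tfdp2 2.35. With protein-coding transcripts alone activators over pocket-protein repressors was -0.53, E2F over DP 1.12, E2f2 over E2f1 -0.37 and E2f2 over E2f3 2.41. With transcripts of 1000 bases or more, an alternative chosen after seeing the data, the same ratios were -0.53, 1.21, -0.37 and 2.41, and Tfdp1 over Tfdp2 was 3.14. The causes were not tested. E2f8 over E2f7 moved by less than its SD under all of these. At a threshold of 5 TPM 9 of 10 genes were detected, all but E2f5. The share of all protein-coding genes at that threshold was not computed. No member passed 1.5-fold between the libraries under any scaling tried. With 2 libraries, leaving out either one cannot move a mean by 1 SD, so it tests nothing here. Rescaling without adult globin and mitochondrially encoded genes, which held 16.1% and 17.3% of TPM in replicates 1 and 2, moved the mean of all 10 members by over 1 SD, by factors of 1.19 and 1.21. Depth limited E2f5 and the short transcripts. No paired analysis was possible because the libraries form 1 group.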

Other observations

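The genes that remove E2F proteins were unevenly expressed. All 4 were detected, with a median of 120 TPM. Cdc20, an activator of the anaphase-promoting complex, had 173 ± 10.4 TPM, Ccnf (cyclin F) 144 ± 14.3 TPM and Fzr1, the other activator of that complex, 97.1 ± 7.86 TPM. Skp2, an F-box protein known to target E2f1, had 3.03 ± 0.0636 TPM.

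All 7 coactivators that activator E2Fs recruit were detected, with a median of 29.4 TPM. Hcfc1 had 165 ± 30.3 TPM, Trrap, the scaffold of acetyltransferase complexes, 77.4 ± 10.1 TPM, Ep300 40.2 ± 1.72 TPM and Kat5 29.4 ± 0.205 TPM. Hcfc1 was 144 TPM in replicate 1 and 187 TPM in replicate 2.

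Of 5 apoptosis genes known as targets of E2f1 3 were detected, beside 41.2% of protein-coding genes, with a median of 11.5 TPM. Apaf1, the core of the apoptosome, had 30.3 ± 0.276 TPM, Bbc3 13.3 ± 2.81 TPM and Bcl2l11 11.5 ± 0.969 TPM. Pmaip1 had 0 TPM in both libraries, and Trp73 had 0.01 TPM in replicate 1 and 0 TPM in replicate 2.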
